A study of Homo sapiens with 23 samples.

Results

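The clustered protocadherins of chromosome 5q31 were followed through acquired resistance to prexasertib, an inhibitor of the checkpoint kinase CHK1, in 4 ovarian cancer cell lines. Members were all rows of the gene table whose NCBI Gene ID maps to a symbol starting with PCDHA, PCDHB or PCDHG, which gave 58 of 21658 rows. The genes were singled out because their resistant and parental values had been seen to differ, so those differences are a description of the members, and the p-values beside them come from fits across all rows. They comprised 16 PCDHA rows (15 genes and the constant region, PCDHACT), 19 PCDHB rows (16 genes and the pseudogenes PCDHB17P, PCDHB18P and PCDHB19P) and 23 PCDHG rows (22 genes and the pseudogene PCDHGB8P). RefSeq holds 64 symbols of this kind, and the 6 without a row were PCDHA14, PCDHGB9P, PCDHB1-AS1 and the locus entries PCDHA@, PCDHB@ and PCDHG@.

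RNA of the parental cultures of OV-90, Kuramochi, OVSAHO and EFO-21 was sequenced beside RNA of derivatives that had been kept under rising prexasertib concentrations until they grew resistant. Each of the 8 groups has 3 libraries from replicates described as biological, except parental OV-90 with 2, and each line gave 1 resistant derivative, so a difference between its groups covers everything that separates that derivative from its parent. The values are log2 expression values, quantile normalized by the authors, with no read counts, so depth is unknown and precision rests on the spread between libraries. A library's values at or below its 10th percentile, between 1.70 and 1.87, are called the bottom here, where a difference is a poor measure of a fold change.

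Clustered protocadherins are cadherin-type adhesion proteins best known from neurons, where each cell displays its own combination of them and like combinations recognize each other across membranes. In the α and γ subclusters every variable exon has its own promoter and encodes the extracellular, transmembrane and proximal cytoplasmic parts, and it is spliced to 3 constant exons that encode a common cytoplasmic end. The β genes stand alone, as a single coding exon each, and lack that common end. Promoter choice is known to depend on CTCF, cohesin and DNA methylation, and the C-type isoforms at the end of the α and γ subclusters (PCDHAC1, PCDHAC2, PCDHGC3, PCDHGC4 and PCDHGC5) are regulated apart from the others.

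The constant exons decide how the rows can be read, so the first of them is shown for both subclusters. In the GENCODE annotation lifted to GRCh37, 3 exons are common to 15 PCDHA transcripts, where they make up 48.7% to 54.9% of the length, and 3 others to 22 PCDHG transcripts, where they make up 44.8% to 45.9%. No PCDHB transcript has a shared exon. The first constant exons are both 59 bases long, lie on the plus strand at chr5:140358534-140358592 (α) and chr5:140874374-140874432 (γ), and are coding exons. Capitals mark the 39 positions at which both carry one base:
PCDHA constant exon 1: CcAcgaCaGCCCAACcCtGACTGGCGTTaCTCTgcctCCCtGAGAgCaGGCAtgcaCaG
PCDHG constant exon 1: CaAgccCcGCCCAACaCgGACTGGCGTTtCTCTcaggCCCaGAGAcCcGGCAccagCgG

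A read in such an exon belongs to every transcript of its subcluster, so PCDHA rows are not independent measurements of 16 genes, nor PCDHG rows of 23. The deposited table gives the number of exons behind each value. The 5 PCDHA rows with 4 exons (PCDHA3, PCDHA7, PCDHA8, PCDHA12 and PCDHA13) correlated with each other at r of 0.997 to 0.999 over the 23 libraries and lay within 0.414 to 0.888 log2 units of each other in any library. The 6 PCDHG rows with 4 exons (PCDHGA2, PCDHGA3, PCDHGA4, PCDHGB3, PCDHGC4 and PCDHGC5) correlated at 0.996 or more and lay within 0.244 to 0.478. Other rows departed further, and PCDHGB5, with 8 exons, correlated with the mean of those 4-exon rows at 0.0169. Counts of PCDHA or PCDHG rows below are therefore counts of rows, and the PCDHB rows are the ones that speak for single genes. Among those, identical stretches as long as a read (150 bases) covered 0% to 16.2% of a transcript's windows, most for PCDHB8, which shares them with PCDHB13, and the split of reads between such pairs is uncertain.

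Promoters are shown because rows of a subcluster moved together or apart. RefSeq promoters (GRCh38.p14, 250 bases before to 50 after a start) were found for 47 of the 58 members. Words of 8 letters were chosen from the members' own promoters and searched on both strands, and they may overlap other motifs. ATGTCGCT was in 9 of 13 PCDHA promoters and in 0.282% of the promoters of 27305 genes. GTGGCGCT was in 13 of 14 PCDHB promoters, all but that of PCDHB1, and in 1.38% of all. GCCGCTGT was in 11 of 20 PCDHG promoters and in 1.98% of all. None of the words was in a promoter of another subcluster, but they were chosen from these promoters, so this is a description. All of them contain the letters CGCT, so they are not unrelated words. The part of the words in the changes was not tested. PCDHA9, called higher in both Kuramochi and OV-90, lacks ATGTCGCT, as do PCDHA11, PCDHAC1 and PCDHAC2, which were called higher in Kuramochi. PCDHA6 carries ATGTCGCT and was called in no line. Among the PCDHA genes called higher in both lines, PCDHA1 (chr5:140786078-140786125) and PCDHA5 (chr5:140821534-140821581) are shown, plus strand, with the word in capitals:
PCDHA1: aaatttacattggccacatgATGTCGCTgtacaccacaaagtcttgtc
PCDHA5: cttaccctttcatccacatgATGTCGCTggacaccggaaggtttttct

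The PCDHB genes that moved in opposite directions in different lines carry the β word GTGGCGCT, as does every PCDHB promoter found but that of PCDHB1. PCDHB7 and PCDHB14 carry it too and were called in no line. Shown are PCDHB3 (chr5:141100385-141100432), PCDHB8 (chr5:141177769-141177816), PCDHB16 (chr5:141182302-141182349), PCDHB9 (chr5:141187066-141187113) and PCDHB12 (chr5:141208635-141208682), with PCDHB5 (chr5:141135171-141135218), the PCDHB gene of the highest mean value, all on the plus strand:
PCDHB3: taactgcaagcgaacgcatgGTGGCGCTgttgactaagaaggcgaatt
PCDHB5: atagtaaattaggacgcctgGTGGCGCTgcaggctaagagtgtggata
PCDHB8: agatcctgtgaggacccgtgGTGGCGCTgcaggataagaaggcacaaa
PCDHB16: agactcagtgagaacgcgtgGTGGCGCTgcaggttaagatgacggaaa
PCDHB9: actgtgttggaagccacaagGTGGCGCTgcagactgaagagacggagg
PCDHB12: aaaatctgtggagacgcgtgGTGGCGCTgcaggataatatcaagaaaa

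The γ word GCCGCTGT was also in promoters of PCDHG genes called in no line, such as PCDHGA1 and PCDHGC4. The PCDHG genes called higher in OVSAHO, PCDHGA10 (chr5:141412925-141412972) and PCDHGC3 (chr5:141475874-141475921), both on the plus strand, carry it:
PCDHGA10: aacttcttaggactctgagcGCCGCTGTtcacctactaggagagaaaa
PCDHGC3: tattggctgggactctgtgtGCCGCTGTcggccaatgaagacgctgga

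Profiles of libraries within a group correlated across genes at 0.952 to 0.988, those of a resistant and a parental library of one line at 0.889 to 0.960, and those of different lines at 0.624 to 0.808, so no library stood with another line than its label. Epithelial keratins were high in all lines (group means of KRT8 from 8.77 to 11.40), while OV-90 had PAX8 and WT1 near the bottom (parental means 2.10 and 1.87) and EFO-21 had WT1 at the bottom (1.03). A row was called at a limma adjusted p under 0.05, adjusted over all 21658 rows, with a change of at least 2-fold. With 3 libraries against 3, an exact permutation test of a single row cannot go below p = 0.1, so no such test was run.

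The plainest result was the rise of the α subcluster in resistant Kuramochi. PCDHACT, the row of the α constant region alone, stood at 3.97, 4.73 and 5.03 in the parental libraries and at 8.65, 8.86 and 8.89 in the resistant ones. The groups were far apart, and the change was 4.23 ± 0.27 (log2, SE, limma adjusted p = 8.21e-05), or 18.7-fold. PCDHAC1, a C-type isoform, read 1.77, 2.06 and 2.24 in parental and from 5.83 to 6.08 in the 3 resistant libraries, a change of 3.94 ± 0.20 (adjusted p = 3.6e-05). Its parental value of 1.77 was at the bottom. PCDHAC2, the other C-type α isoform, was at the bottom in all 3 parental libraries (1.36, 1.52 and 1.56) and at 4.48, 4.69 and 4.85 in the resistant ones. Because it started at the bottom, its difference of 3.20 ± 0.20 (adjusted p = 7.08e-05) is not a measured fold change.

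Among the other α members, PCDHA7 went from 2.32, 2.97 and 3.19 to 5.93, 6.14 and 6.25 (change 3.28 ± 0.27, adjusted p = 0.000202). PCDHA13 went from 1.67, 2.37 and 2.58 to 5.28, 5.40 and 5.71 (3.26 ± 0.29, adjusted p = 0.000285). PCDHA3 went from 1.80, 2.81 and 3.10 to 5.58, 5.95 and 6.05 (3.29 ± 0.37, adjusted p = 0.000716). These 3 rows have 4 exons each and share the constant ones. Among the 4 rows with 8 or 10 exons, PCDHAC2 is given above, and PCDHA11 changed by 1.72 from a level at the bottom. PCDHA10 changed by 1.06, while PCDHA6 changed by 0.96 and was not called (adjusted p = 0.0502). PCDHA10 and PCDHA6 were each at the bottom in 2 of 3 parental libraries. Parental library 6 had the lowest median, with 12 of its 16 PCDHA rows at the bottom, against 4 and 2 in the other parental libraries and 0 in every resistant one. Leaving out each library in turn gave a change of PCDHACT between 3.92 and 4.45.

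Of the 16 PCDHA rows, 15 were called higher and 0 lower in Kuramochi, where 11.8% of all rows were called higher, 10.6% lower and 22.5% either way. All 16 had resistant libraries above every parental one, which held for 28.7% of all rows (30.5% the other way). The median change was 3.09, against −0.02 over all rows. The difference from each other line was tested row by row. The change was larger in Kuramochi than in OVSAHO or in EFO-21 for 16 of 16 PCDHA rows, and larger than in OV-90 for 15 of 16, at an adjusted p under 0.05 over all rows. In those tests 45.9%, 48.4% and 56.1% of all rows differed in either direction. Kuramochi was set against the other lines for its large rise, and the rows share exons, so these differences are a description. For PCDHACT the change in Kuramochi exceeded that in OVSAHO by 3.30 ± 0.36 (adjusted p = 4.62e-07), that in OV-90 by 2.38 ± 0.38 (adjusted p = 3.58e-05) and that in EFO-21 by 4.34 ± 0.36 (adjusted p = 1.03e-08).

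**Figure D1:**
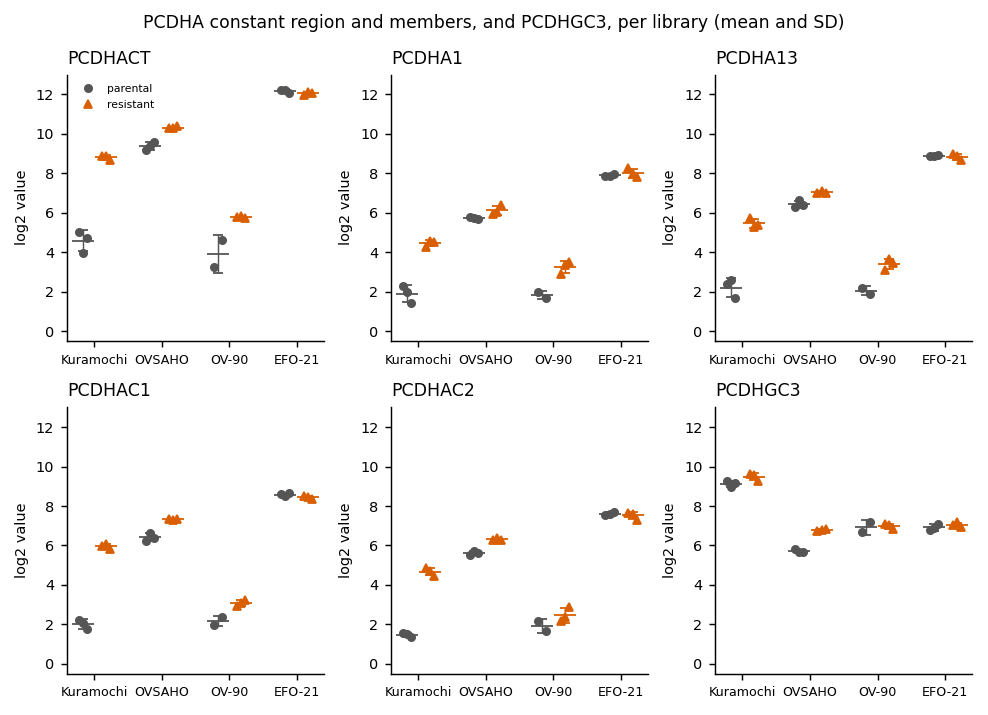
Deposited log2 values per library of PCDHACT, PCDHA1, PCDHA13, PCDHAC1, PCDHAC2 and PCDHGC3 in the 4 lines, with parental libraries as grey circles, resistant ones as orange triangles, and the mean and SD of each group as bars. In Kuramochi the PCDHACT values move from between 3.97 and 5.03 to between 8.65 and 8.89, in OV-90 from 3.24 and 4.60 to between 5.71 and 5.81, and in EFO-21 the groups overlap near 12.

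In OV-90, 15 of the 16 α rows had a change above 0 and 9 were called higher, again from low values. PCDHACT read 3.24 and 4.60 in the parental libraries and 5.71, 5.79 and 5.81 in the resistant ones (change 1.85 ± 0.43, adjusted p = 0.0338). The parental libraries lay 1.36 apart, so the size of this change depended on which of them was kept, from 1.17 to 2.53. PCDHA5 read 1.70 and 2.01 against 2.91, 3.48 and 3.60 (1.48 ± 0.29, adjusted p = 0.0263), and PCDHA1 1.67 and 1.97 against 2.89, 3.34 and 3.48 (1.42 ± 0.27, adjusted p = 0.024). The lower parental value was at the bottom for both rows, so these differences are poor measures of a fold change. PCDHA9 was at the bottom in both parental libraries (1.27 and 1.66) and at 2.56, 2.88 and 3.27 in the resistant ones. The calls in this line were 9 PCDHA rows higher and 0 lower, where 9.50% of all rows were called higher, 6.56% lower and 16.1% either way. Resistant libraries lay above the parental ones without overlap for 14 of 16 PCDHA rows and below for 1, against 32.0% and 37.1% of all rows. PCDHA6 lay lower in the resistant libraries (change −0.32, adjusted p = 0.362), and PCDHA10 was the 1 row whose change (1.24) was above that in Kuramochi. The C-type rows were not called, with changes of 0.90 for PCDHAC1 (adjusted p = 0.038, below 2-fold) and 0.55 for PCDHAC2 (adjusted p = 0.22).

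The OV-90 calls rested on few libraries. Of the 14 members called there, 10 were called again without parental library 3 (of 13 called then), 8 without parental library 2, 1 without resistant library 14 (of 2 called then) and 0 without resistant library 13 or 15. Over all rows the share called fell in step, from 16.1% to 11.1% without library 2 and to 1.43%, 1.96% and 1.64% without libraries 13, 14 and 15, while it was 27.6% without library 3, and with 1 parental library left its spread was taken from the resistant ones.

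OVSAHO and EFO-21 started from higher α levels. PCDHACT in OVSAHO read 9.18, 9.39 and 9.60 in parental and 10.27, 10.29 and 10.37 in resistant libraries, which did not overlap. The change of 0.92 ± 0.11 (adjusted p = 0.00199) passed the test but not the 2-fold limit, and 11 of 16 PCDHA rows in OVSAHO had an adjusted p under 0.05, as had 33.3% of all rows, with 0 called. In EFO-21 PCDHACT read 12.06, 12.19 and 12.24 in parental and 11.97, 12.06 and 12.09 in resistant libraries, which overlapped (change −0.12 ± 0.06, adjusted p = 0.143). Median PCDHA changes were 0.57 in OVSAHO, 1.19 in OV-90 and −0.08 in EFO-21, with medians over all rows of 0.00, −0.06 and 0.01.

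**Figure D2:**
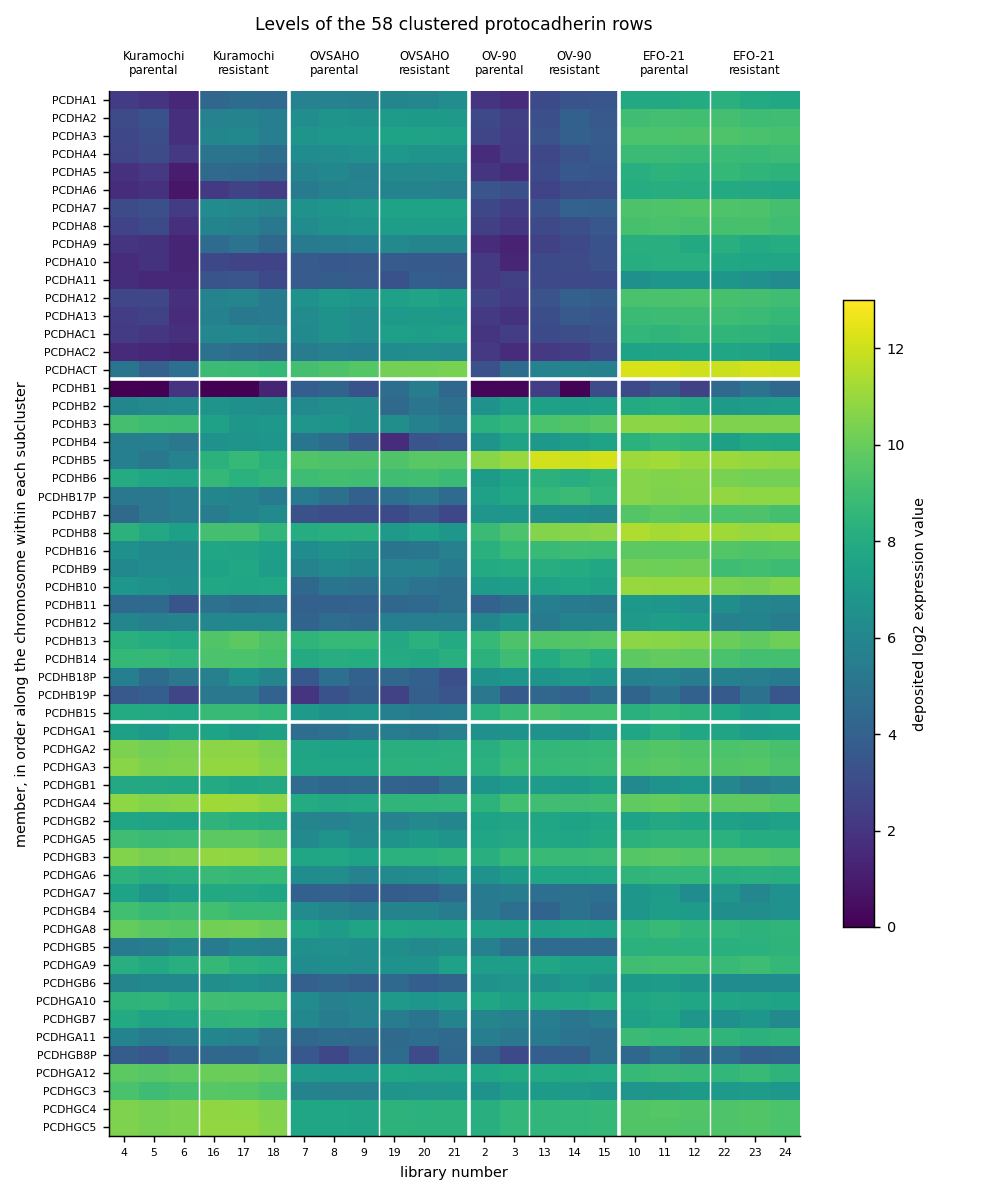
Deposited log2 value of each of the 58 members (rows, in order along the chromosome within each subcluster) in each of the 23 libraries (columns, grouped by line and by parental or resistant state), from dark (low) to yellow (high). Thick white lines part the subclusters and the cell lines. The 16 PCDHA rows brighten from parental to resistant Kuramochi, and PCDHB5 reaches its highest value, 12.17, in resistant OV-90.

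Levels in the parental lines differed for all 58 members in a limma F test, which 95.6% of all rows also passed. PCDHACT was highest in EFO-21 (12.16 ± 0.09, SD, n = 3), followed by OVSAHO (9.39 ± 0.21), Kuramochi (4.58 ± 0.54) and OV-90 (3.92 ± 0.96, n = 2), and the last neighbours, whose values overlapped, differed by 0.66 ± 0.28 (adjusted p = 0.0422). All 16 PCDHA rows were highest in EFO-21, and 8 each were lowest in Kuramochi and in OV-90. For PCDHA1, PCDHA3, PCDHA5, PCDHA7, PCDHA9, PCDHA13 and PCDHAC1 Kuramochi and OV-90 were not told apart, with adjusted p from 0.248 for PCDHA9 to 0.906 for PCDHA3. Of the PCDHB rows, 15 were highest in EFO-21 and 12 lowest in OVSAHO. PCDHG rows had another order, 15 being highest in Kuramochi and 8 in EFO-21, with 19 lowest in OVSAHO. PCDHGA4, the PCDHG row with the highest mean, read 10.70 in Kuramochi, 9.84 in EFO-21, 8.75 in OV-90 and 7.93 in OVSAHO, and each step exceeded the spread (adjusted p of 1.96e-06, 3.37e-07 and 1.19e-05). Kuramochi was thus lowest or next to lowest for the named α rows and highest for most γ rows.

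The PCDHB genes were the only members called in opposite directions in different lines, 5 of 19 (PCDHB3, PCDHB8, PCDHB16, PCDHB9 and PCDHB12), where 6.25% of all rows were. PCDHB3 fell in Kuramochi from 8.93, 8.95 and 9.15 to 6.87, 6.94 and 7.42 (change −1.93 ± 0.16, adjusted p = 0.000206), the 1 member called lower in that line. In OV-90 it rose from 8.28 and 8.58 to 9.34, 9.50 and 9.67 (1.07 ± 0.14, adjusted p = 0.0146). Both pairs of groups were separate, as were 30.5% of all rows downwards in Kuramochi and 32.0% upwards in OV-90. The OV-90 rise lost its call without resistant library 13, 14 or 15, and fell short of 2-fold (0.92) without parental library 2. Its change was 0.92 to 1.22 over the fits that left out a library. The changes of PCDHB3 differed by −3.00 ± 0.31 (Kuramochi minus OV-90, adjusted p = 2.11e-07).

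PCDHB8 rose in Kuramochi, from 7.39, 7.83 and 8.34 to 8.56, 9.15 and 9.17 (1.11 ± 0.28, adjusted p = 0.0183). It also rose in OV-90, from 8.85 and 9.33 to 10.59, 10.65 and 10.75 (1.57 ± 0.16, adjusted p = 0.00976). In OVSAHO it fell, from 8.05, 8.15 and 8.17 to 6.89, 6.96 and 7.36 (−1.05 ± 0.13, adjusted p = 0.00246). None of these groups overlapped, but the Kuramochi rise lost its call in 4 of 6 fits that left out a library (5, 6, 16 or 17), with a change of 0.87 to 1.35 and an adjusted p of up to 0.0659. The OVSAHO fall lost it without library 19 or 21, with a change between −1.20 and −0.97. The OV-90 rise lost it without library 13, 14 or 15, with a change between 1.33 and 1.82. PCDHB13, which shares sequence with PCDHB8, changed by 1.44 in Kuramochi, −0.62 in OVSAHO and 0.50 in OV-90.

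PCDHB16 rose in Kuramochi from 6.14, 6.15 and 6.54 to 7.34, 7.61 and 7.64 (1.25 ± 0.15, adjusted p = 0.000917) and fell in OVSAHO from 6.33, 6.43 and 6.68 to 4.99, 5.08 and 5.68 (−1.23 ± 0.21, adjusted p = 0.00759). PCDHB9 rose in Kuramochi from 6.07, 6.26 and 6.29 to 7.25, 7.56 and 7.74 (1.31 ± 0.15, adjusted p = 0.000692) and fell in EFO-21 from 10.14, 10.17 and 10.20 to 8.92, 8.99 and 9.05 (−1.19 ± 0.04, adjusted p = 2.18e-05). PCDHB12 rose in OVSAHO from 4.20, 4.44 and 4.64 to 5.54, 5.57 and 5.59 (1.14 ± 0.14, adjusted p = 0.00277) and fell in EFO-21 from 7.04, 7.12 and 7.22 to 5.51, 5.69 and 5.85 (−1.45 ± 0.11, adjusted p = 0.000192). In all these pairs the parental and resistant values were separate, and the EFO-21 falls of PCDHB9 and PCDHB12 started from the highest parental level of the 4 lines.

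**Figure D3:**
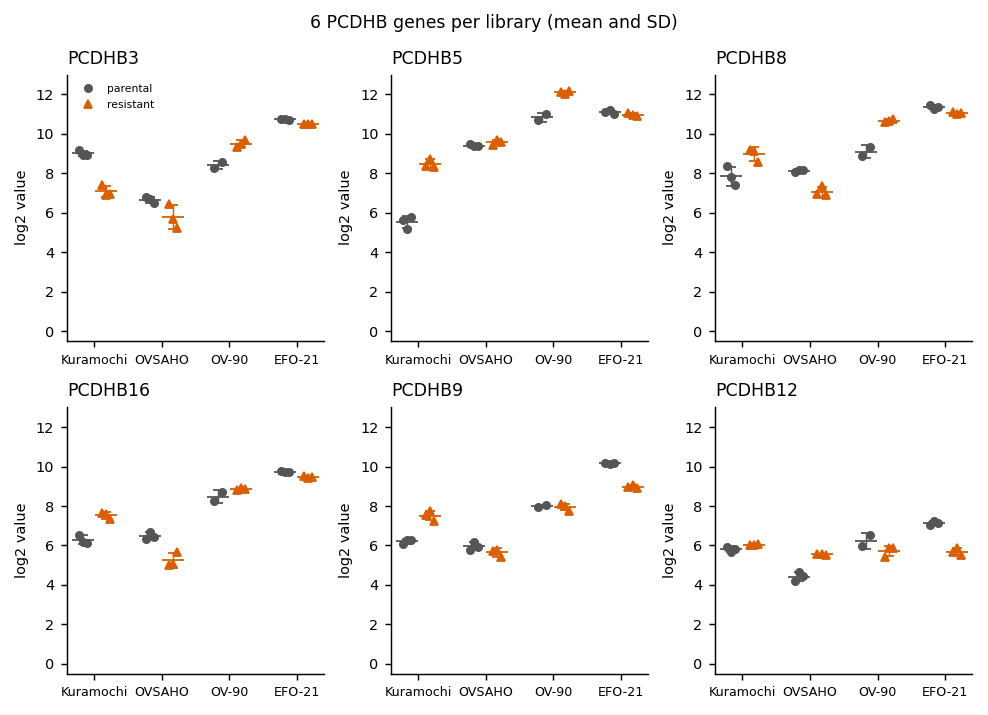
Deposited log2 values per library of PCDHB3, PCDHB5, PCDHB8, PCDHB16, PCDHB9 and PCDHB12 in the 4 lines, with parental libraries as grey circles, resistant ones as orange triangles, and the mean and SD of each group as bars. PCDHB3 falls by 1.93 in Kuramochi and rises by 1.07 in OV-90, while PCDHB5 rises by 2.95 and 1.26 in those lines.

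PCDHB5, the PCDHB row with the highest mean, was the only one of its subcluster called higher in the fit averaged over the 4 lines. It rose in Kuramochi from 5.18, 5.61 and 5.76 to 8.30, 8.35 and 8.73 (2.95 ± 0.19, adjusted p = 8.45e-05, 7.71-fold). In OV-90 it rose from 10.68 and 10.99 to 12, 12.11 and 12.17 (1.26 ± 0.12, adjusted p = 0.00904). In OVSAHO (9.36 to 9.46 against 9.44 to 9.66) and in EFO-21 (11.01 to 11.20 against 10.89 to 11.04) the values overlapped. Its Kuramochi change exceeded that in OV-90 by 1.69 ± 0.19 (adjusted p = 8.59e-07). In Kuramochi the other PCDHB rows called higher (PCDHB4, PCDHB8, PCDHB16, PCDHB9, PCDHB10, PCDHB13 and the pseudogene PCDHB19P) rose by 1.10 to 1.44, less than PCDHB5.

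In OVSAHO the called β falls were PCDHB2, PCDHB8, PCDHB16 and PCDHB15. PCDHB4 had the largest fall (−1.54) but was not called, and its resistant values were spread from 1.63 to 3.68. PCDHB2 went from 6.17, 6.37 and 6.45 to 4.52, 4.81 and 5.12 (−1.51 ± 0.18, adjusted p = 0.00213) and PCDHB15 from 6.63, 6.71 and 6.99 to 5.30, 5.53 and 5.64 (−1.29 ± 0.13, adjusted p = 0.00151). With PCDHB12 as the 1 called PCDHB rise, 1 PCDHB row was called higher and 4 lower in OVSAHO. Of all rows, 3.93% were called higher there, 3.83% lower and 7.76% either way. Values did not overlap for 3 rises and 8 falls of the 19 PCDHB rows, against 24.6% and 23.7% of all rows. In EFO-21, PCDHB2 and PCDHB15 had changes of −0.74 (adjusted p = 0.000482) and −0.96 (adjusted p = 0.00273), short of 2-fold.

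Kuramochi had 8 of 19 PCDHB rows called higher and 1 lower, against 11.8% and 10.6% of all rows. OV-90 had 5 higher (PCDHB3, PCDHB5, PCDHB8, PCDHB11 and the pseudogene PCDHB17P) and 0 lower, against 9.50% and 6.56%. In EFO-21 the subcluster leaned the other way. There, 2 PCDHB rows were called lower (PCDHB9 and PCDHB12) and 1 higher, where 7.11% of all rows were called higher, 7.15% lower and 14.3% either way. Without the 2-fold limit 16 of 19 had an adjusted p under 0.05, as had 48.4% of all rows, and values were separate for 14 falls and 2 rises of 19, against 29.3% and 30.4% of all rows. Median PCDHB changes were 0.86 in Kuramochi, −0.09 in OVSAHO, 0.46 in OV-90 and −0.35 in EFO-21.

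PCDHB1 stood apart in its sequence window, as the one PCDHB promoter without the β word, and in its level. In Kuramochi it read 0.01, 0.01 and 1.97 in parental and 0.00, 0.00 and 1.33 in resistant libraries, all but the 1.97 at the bottom. In EFO-21 it rose from 2.57, 2.87 and 3.42 to 4.34, 4.46 and 4.96 (1.63 ± 0.29, adjusted p = 0.00517), the 1 member called higher in that line. Its changes were not shown to differ between lines (F test, adjusted p = 0.201).

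The γ subcluster had the fewest calls. In Kuramochi and OV-90, 0 of 23 PCDHG rows were called, and in EFO-21 none was called either, while an adjusted p under 0.05 was reached by 15, 2 and 8 of them, against 46.9%, 36.0% and 48.4% of all rows. PCDHGA4 read 10.60, 10.69 and 10.79 in parental and 10.86, 11.08 and 11.12 in resistant Kuramochi (0.33 ± 0.09, adjusted p = 0.0243), which is separate but 1.25-fold. Of the 23 PCDHG rows, 17 were separate upwards and 0 downwards in Kuramochi, against 28.7% and 30.5% of all rows, and 10 upwards and 0 downwards in OVSAHO, against 24.6% and 23.7%. In OV-90, 7 were separate upwards and 3 downwards, no more than the 32.0% and 37.1% of all rows. In EFO-21, 0 were separate upwards and 11 downwards, against 30.4% and 29.3%. The median changes were 0.33 in Kuramochi, 0.52 in OVSAHO, 0.14 in OV-90 and −0.23 in EFO-21.

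OVSAHO was the line with γ calls, PCDHGC3 and PCDHGA10. They were 2 of 23 PCDHG rows called higher (8.7%), with 0 lower, against 3.93% and 3.83% of all rows. An adjusted p under 0.05 was reached by 9 of the 23, against 33.3% of all rows. PCDHGC3, a C-type isoform, rose from 5.66, 5.67 and 5.80 to 6.74, 6.77 and 6.83 (1.07 ± 0.07, adjusted p = 0.00037). Its groups did not overlap, and its change stayed between 1.04 and 1.11 whichever library was left out. PCDHGA10 rose from 5.66, 5.86 and 6.29 to 6.85, 7.02 and 7.06 (1.04 ± 0.17, adjusted p = 0.00681), and lost the call without library 8, 9 or 21, with changes of 0.90 to 1.22. The other C-type rows, PCDHGC4 and PCDHGC5, changed by 0.69 ± 0.05 and 0.70 ± 0.04 there, close to the other rows of 4 exons (0.60 to 0.70). PCDHGC3 is built from 11 exons, and in Kuramochi it read 8.97, 9.16 and 9.26 against 9.28, 9.56 and 9.60 (0.35 ± 0.11, adjusted p = 0.0445). In OV-90 and EFO-21 its values overlapped (changes of 0.06 and 0.12).

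**Figure D4:**
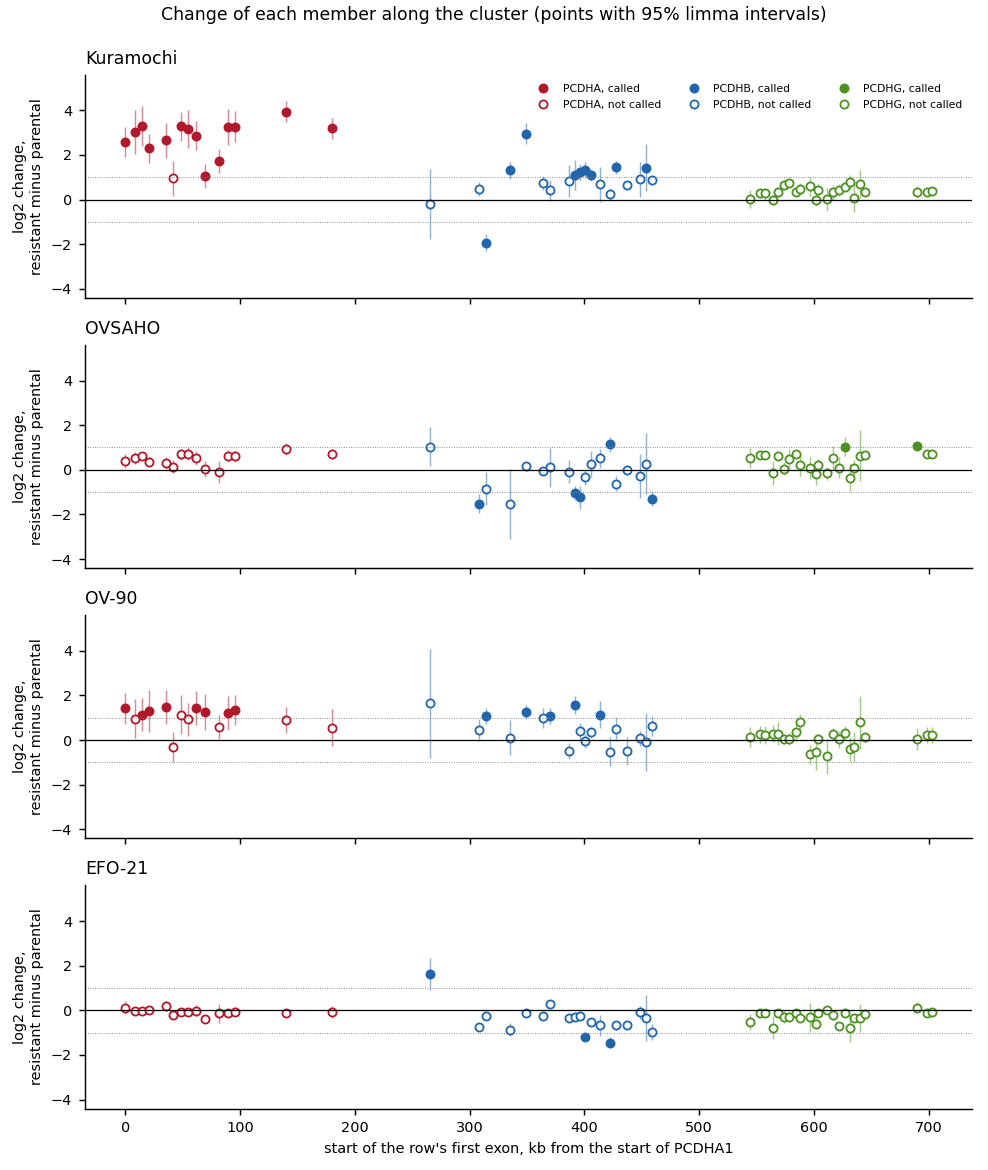
Change of 57 members (resistant minus parental, log2, with 95% limma intervals) against the start of the row's first exon in kb from the start of PCDHA1, for each line, with PCDHA in red, PCDHB in blue and PCDHG in green. Filled points were called, open ones were not, and dotted lines mark 2-fold. PCDHACT has no position and is not drawn. In Kuramochi the red points lie between 0.96 and 3.94 and the green ones between −0.03 and 0.76.

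Over all lines, 32 members were called in at least 1 line, as were 43.6% of all rows, and 26 in none, of which 21 were PCDHG rows. A total of 11 were called higher in exactly 2 lines, where 4.15% of all rows were, and 0 were called higher or lower in 3 or more, where 0.619% and 0.669% of all rows were. Averaged over the lines, 13 members were called higher (12 PCDHA rows and PCDHB5) and 0 lower, where 2.90% and 3.20% of all rows were. That fit took the 23 libraries, not the 4 lines, as replicates, so its p-values do not speak for other lines. The averages were 1.71 ± 0.38 for PCDHACT (adjusted p = 0.0019) and 1.44 ± 0.35 for PCDHAC1 (adjusted p = 0.00367), means over lines whose own changes ran from −0.12 to 4.23 and from −0.13 to 3.94. Changes differed between lines for 50 of 58 members (16 PCDHA, 15 PCDHB and 19 PCDHG rows), against 75.1% of all rows.

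Across the 23 libraries the members of a subcluster resembled each other to different degrees. The median correlation was 0.987 within PCDHA, 0.795 within PCDHG and 0.616 within PCDHB, where exons are not shared, and it was 0.381 between PCDHA and PCDHB, 0.354 between PCDHB and PCDHG and −0.08 between PCDHA and PCDHG. The points of each correlation are 4 lines in 2 states, so these values mostly describe the order of the lines. Some rows did not follow their own subcluster. PCDHB6, singled out after its values were seen, correlated with PCDHACT at 0.94 and PCDHGB5 at 0.84. Neither followed PCDHACT in Kuramochi to the same degree, where PCDHB6 changed by 0.75 and PCDHGB5 by 0.01.

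**Figure D5:**
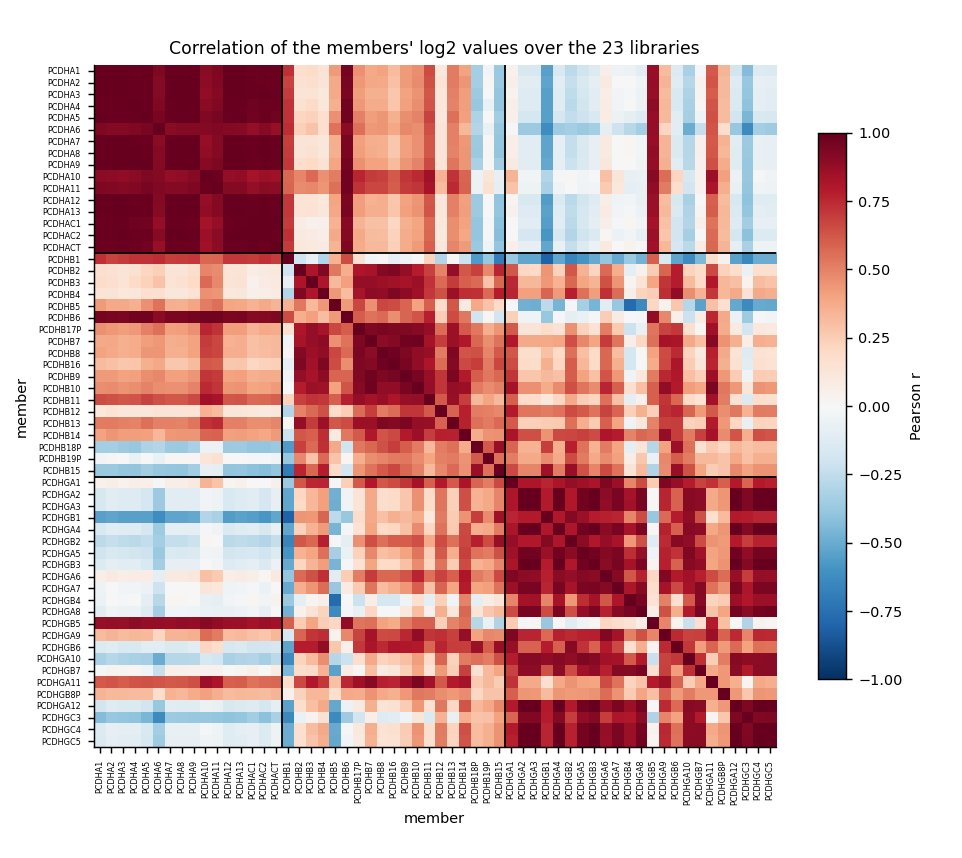
Pearson correlation of the log2 values over the 23 libraries between every pair of the 58 members, from −1 (blue) to 1 (red), with black lines between the subclusters. The PCDHA block is uniformly red (median 0.987), the PCDHB block less so (median 0.616), and the rows of PCDHB6 and PCDHGB5 are red beside PCDHA.

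Genes on either side of the cluster, were taken from a list of 17. Of 16 measured, among them the histidyl-tRNA synthetases HARS1 and HARS2, the formin DIAPH1 and the histone deacetylase HDAC3, 1 was called lower in Kuramochi (ARAP3, −1.69), 1 higher in OVSAHO (ARAP3, 3.82) and 1 higher in EFO-21 (RELL2, 1.08), with 0 in OV-90. The shares of all rows called either way were 22.5% in Kuramochi, 7.76% in OVSAHO, 16.1% in OV-90 and 14.3% in EFO-21. At 16 genes, the 1 call in OVSAHO is close to its share, and the counts in the other lines lie below theirs. Their median changes were −0.02 in Kuramochi, −0.10 in OVSAHO, −0.11 in OV-90 and −0.11 in EFO-21. DNA copy number was not measured here.

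Of 29 measured regulators of the clusters (CTCF, cohesin subunits and loaders, DNA methyltransferases and TET enzymes, Polycomb and SETDB1 complex members), 0 were called higher and 4 lower in Kuramochi, the latter near the 10.6% of all rows called lower. These were the Polycomb subunits EZH2 (−1.01 ± 0.08, adjusted p = 0.000221) and EED (−1.10 ± 0.11, adjusted p = 0.000471), the cohesin regulator PDS5B (−1.06 ± 0.15, adjusted p = 0.0017) and the 5-methylcytosine dioxygenase TET2 (−1.74 ± 0.51, adjusted p = 0.0324). In OV-90, 9 were called higher and 0 lower, against 9.50% and 6.56% of all rows, among them SMCHD1, a structural chromatin protein that represses the clusters in mice, at 1.83 ± 0.36 (adjusted p = 0.0257), TET3 at 1.70 ± 0.32 (adjusted p = 0.0249), TET1 at 1.45 ± 0.18 (adjusted p = 0.0138) and the cohesin subunit STAG2 at 1.37 ± 0.27 (adjusted p = 0.0256). In OVSAHO and EFO-21 none was called. CTCF changed by −0.20 in Kuramochi, 0.06 in OVSAHO, 0.59 in OV-90 and 0.12 in EFO-21 and was called in none of them. The part of these genes in the protocadherin changes was not tested.

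Partners and processing enzymes numbered 24, all measured, and were called higher and lower in 2 and 1 cases in Kuramochi, 2 and 1 in OVSAHO, 7 and 2 in OV-90 and 0 and 2 in EFO-21, where the shares of all rows were 11.8% and 10.6%, 3.93% and 3.83%, 9.50% and 6.56%, and 7.11% and 7.15%. FYN, a kinase that binds the α cytoplasmic end, fell in Kuramochi (−2.45 ± 0.06, adjusted p = 5.74e-06) and EFO-21 (−2.40 ± 0.14, adjusted p = 8.42e-05) and rose in OVSAHO (1.58 ± 0.16, adjusted p = 0.00134). RET, a receptor tyrosine kinase that phosphorylates clustered protocadherins, rose in Kuramochi from a mean of 0.81 to 4.32 (3.52 ± 0.18, adjusted p = 3.73e-05), from a level at the bottom. WASF3, a subunit of the WAVE actin regulator, rose in Kuramochi (1.73 ± 0.29, adjusted p = 0.00373, from the bottom in 2 of 3 parental libraries) and OV-90 (2.27 ± 0.19, adjusted p = 0.00727).

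The non-clustered protocadherins, 10 of 12 measured, had 0 members called higher and 5 lower in Kuramochi, against 11.8% and 10.6% of all rows. PCDH20 went from a mean of 7.10 to 0.66 (adjusted p = 0.000286), PCDH10 from 6.15 to 1.43 (adjusted p = 9.92e-05) and PCDH17 from 5.15 to 0.65 (adjusted p = 0.000134). The resistant values were at the bottom in all 3 libraries for PCDH10 and PCDH17 and in 2 for PCDH20. Calls higher and lower numbered 3 and 1 in OVSAHO, 2 and 1 in OV-90 and 3 and 1 in EFO-21. The shares of all rows there were 3.93% and 3.83%, 9.50% and 6.56%, and 7.11% and 7.15%. In EFO-21 PCDH7 fell from 4.40 to 0.30 and PCDH18 rose from 1.10 to 4.03.

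Markers of cell types moved as well. The shares of all rows given above for each line hold for these counts too. Of 8 Müllerian epithelial markers, 0 were called higher and 5 lower in Kuramochi, 0 and 3 in OVSAHO and none in OV-90 or EFO-21, and their summed level (log2 of the linear sum) went from 13.65 to 13.83 in parental Kuramochi to 12.68 to 12.75 in the resistant line. Of 7 measured neuronal markers, 3 were called higher and 2 lower in Kuramochi, 1 and 1 in both OVSAHO and OV-90, and 0 and 1 in EFO-21, with summed levels in Kuramochi of 8.99 to 9.08 in parental and 9.82 to 9.89 in resistant libraries. In Kuramochi SNAP25, RBFOX3 and TUBB3 rose while MAP2 fell and STMN2 ended at the bottom. Of 7 fibroblast markers, 2 were called higher and 4 lower in Kuramochi, 2 and 3 in OVSAHO, none in OV-90 and 1 and 0 in EFO-21, with COL1A2 and DCN at the bottom in resistant Kuramochi and a summed level of 10.86 to 11.12 in parental and 8.98 to 9.12 in resistant libraries. The part of these marker changes in the protocadherin changes was not tested, and in bulk RNA more cells that express a gene cannot be told apart from more RNA per cell.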

How the data were processed

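Total RNA of 23 cultures was converted to libraries with a stranded mRNA kit and sequenced by the authors as paired 150-base reads aligned to GRCh37. The authors dropped any exon whose reads stayed below 10 in over 80% of samples, summarised exon and junction reads per gene by a robust linear model or, for some rows, by mean log2 values, and quantile normalized the libraries. The deposited values are log2 expression values, used as they stand. The annotation release is not given in the sources used here.

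NCBI Gene IDs were matched to RefSeq symbols. Groups followed the sample labels, and libraries are numbered as in the table. Resistant and parental libraries of each line were compared with limma 3.58.1 (lmFit, eBayes with trend, two-sided) in R 4.3.3, with Benjamini-Hochberg adjustment over all 21658 rows. Fits over all 23 libraries gave the averaged change (with line as covariate) and F tests between lines. The fits were tested on simulated data. Named members were, in each line, up to 5 called rises and 5 called falls of largest size with separate groups, the C-type isoforms, the member of highest mean in each subcluster and members called in opposite directions. Members and lists were chosen with earlier results of these data known. Alternatives were another fit, trend, filter, centring, pseudocount, threshold, row type and each library left out.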

Additional observations from a re-analysis of the deposited data

Results flagged for a closer look

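PCDHB genes changed differently in pairs of lines, by a limma test of the difference of changes adjusted over all rows. Kuramochi minus OVSAHO differed by 2.16 ± 0.28 (log2, SE, adjusted p = 3.69e-06) for PCDHB8 and by 2.48 ± 0.22 (adjusted p = 4.6e-08) for PCDHB16, where 45.9% of all rows had an adjusted p under 0.05. Kuramochi minus OV-90 differed by −3.00 ± 0.31 (adjusted p = 2.11e-07) for PCDHB3, where 56.1% of all rows did. Kuramochi minus EFO-21 differed by 2.50 ± 0.18 (adjusted p = 1.49e-09) for PCDHB9, where 48.4% did. OVSAHO minus OV-90 differed by −2.63 ± 0.29 (adjusted p = 2.71e-06) for PCDHB8, where 36.7% did. OVSAHO minus EFO-21 differed by 2.59 ± 0.21 (adjusted p = 4.21e-08) for PCDHB12, where 32.4% did. These pairs were chosen for their opposite calls, so the differences are a description.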

How the results depend on the processing

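Members called numbered 24 in Kuramochi, 7 in OVSAHO, 14 in OV-90 and 3 in EFO-21. A 1.5-fold limit gave 23 in OVSAHO and 13 in EFO-21, and the share of all rows at that limit is not given here. With no fold limit, 43 of 58 passed in Kuramochi, 26 in OVSAHO and 26 in EFO-21. The shares of all rows were then 46.9%, 33.3% and 48.4%, so the EFO-21 count is no more than its share. Rows of the robust linear model alone gave 15 in Kuramochi and 1 in EFO-21, with fewer rows tested. Leaving out 1 library gave 21 to 24 in Kuramochi, 5 to 7 in OVSAHO, 3 to 4 in EFO-21 and 0 to 13 in OV-90, where 0 were called without library 13 or 15, 2 without library 14 and 8 without library 2. The averaged fit gave 9 to 15, the F test of changes 49 to 51 and that of parental lines 56 to 58. Among named changes refitted with a library left out, 150 kept their call and 39 lost it, and no direction turned in any alternative. The other settings kept every named call they could test. No paired analysis was possible because the columns of the table carry no replicate numbers. Depth is unknown, and changes from the bottom are poor measures of a fold change.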
